A study of Drosophila melanogaster with 13 samples.

Results

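The 10 sarcomere genes described here are TpnC4, fln, Act88F, Act79B, Mlc1, Mlc2, up, Prm, sls and Tm2, measured in adult heads of Drosophila melanogaster. They were taken by gene symbol from the platform's probe annotation, so that they are 10 of the 11982 genes with a probe set named for 1 gene only, and the annotation gave them 13 of the 18769 probe sets tested. Each probe set of an Affymetrix array combines several short probes for a transcript. Of the 10 genes, 3 were treated as flight muscle genes (TpnC4, fln and Act88F) and 7 as general muscle genes. Each gene is represented by its probe set with the highest mean signal unless another is named.

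The study compared heads with and without mutations in egg and Su(var)3-9, a pair of genes that encode histone H3K9 methyltransferases. The control genotype was yw; +/CyO. The egg mutant was yw; egg235/CyO, so that 1 copy of egg was mutant, the Su(var)3-9 mutant was yw; +/CyO; Su(var)3-906, and the double mutant was yw; egg235/CyO; Su(var)3-906. All 4 genotypes thus shared the yw background and the balancer chromosome CyO, and the labels give neither the sex of the flies, nor an age beyond adult, nor the number of heads per sample. Whether the Su(var)3-9 mutation was homozygous is not given either. The levels of egg and Su(var)3-9 themselves were not analysed here, so the labels were not checked against them. Each genotype had 3 arrays, called biological replicates in the labels, so that 12 arrays were compared. Nothing in the labels says that replicates came from separate cultures, and p-values measure the spread between these samples.

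Muscle contracts by the sliding of thin filaments, built of actin, tropomyosin and troponin, past thick filaments of myosin and, in invertebrates, paramyosin. The indirect flight muscles of the fly thorax are stretch-activated and use their own versions of several of these proteins. TpnC4 encodes the troponin C of stretch activation, fln encodes flightin, a thick filament protein of these muscles, and Act88F encodes their actin. Heads hold muscles of the mouthparts and other small muscles but no indirect flight muscle. Precision is limited by having 3 arrays per genotype. Values are deposited log2 expression, a log2 difference of 1 is a doubling, and values after ± are standard errors of a difference, or standard deviations where marked SD. A gene passed when its Benjamini-Hochberg adjusted p from limma, over all 18769 probe sets, was under 0.05.

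Markers of the head were present on all arrays. The median log2 level of 5 neuronal markers was 9.59 to 9.92 in the control and 10.29 to 10.76 in the mutants, against 5.71 to 6.14 for all probe sets of an array. The median of 3 photoreceptor markers was 10.81 to 11.10 in the control and 11.30 to 12.17 in the mutants. For 5 glial markers it was 9.66 to 9.82 and 10.09 to 10.56. Head fat body markers were split. Of these 6 markers 1 was higher and 1 lower in egg heads than in the control, against 32% and 18.9% of all probe sets. In Su(var)3-9 heads 4 were higher, against 44.4%, and in double mutants 2, against 40.4%, and none was lower. Their median changes were 0.04, 0.94 and 0.28. Markers of other body parts were also present and stood highest in the control. The median of 8 gut markers was 11.08 to 11.66 in the control, 7.50 to 8.34 in egg heads, 4.84 to 7.75 in Su(var)3-9 heads and 5.19 to 6.40 in double mutants. For 8 testis markers these ranges were 8.68 to 9.25, 7.01 to 7.09, 4.25 to 4.86 and 4.66 to 5.86. For 6 accessory gland markers they were 11.08 to 11.53, 8.95 to 9.30, 3.95 to 6.35 and 5.21 to 7.56. Control and mutant libraries thus differed widely in transcripts of these tissues, and every comparison with the control below shares those 3 libraries. No comparison with the control can be made without them, so the comparisons between mutants are given as well. Markers of these tissues differed between egg heads and the other mutants too. The part of such tissues in the muscle values was not tested. In RNA of whole heads, fewer cells of a type and less RNA per cell cannot be told apart.

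Transcripts of all 3 flight muscle genes were high in the control and far lower in every mutant. TpnC4 had log2 levels of 12.52, 11.70 and 12.39 on control arrays 1, 2 and 3. Its levels were 6.89, 8.51 and 8.13 in egg heads, 7.79, 4.08 and 7.48 in Su(var)3-9 heads, and 3.94, 7.41 and 5.12 in double mutants. The control arrays lay above all 9 mutant arrays, while the mutant groups overlapped one another. Against the control TpnC4 fell by 4.36 ± 0.95 in egg heads, a 20.5-fold difference (adjusted p = 0.00185). In Su(var)3-9 heads the change was -5.75 ± 0.95 (53.8-fold, adjusted p = 0.000242) and in double mutants -6.71 ± 0.95 (105-fold, adjusted p = 7.04e-05). TpnC4 was dim on some mutant arrays, where 16.7% (Su(var)3-9 array 2), 13.1% and 43.8% (double mutant arrays 1 and 3) of all probe sets of the array were at or below its level. Whether those levels are above background is not known, because the deposited values carry no detection call, and the folds of these 2 genotypes are those of the deposited values only.

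Flightin followed the same order of genotypes. The levels of fln were 13.71, 13.12 and 13.61 in the control, 8.57, 10.68 and 10.15 in egg heads, 9.96, 6.75 and 9.63 in Su(var)3-9 heads, and 5.37, 8.74 and 6.42 in double mutants. No mutant array came within 2 log2 units of the lowest control array, since the highest mutant level was 10.68 and the lowest control level 13.12. The gene changed by -3.68 ± 0.90 in egg heads (12.8-fold, adjusted p = 0.00396), by -4.71 ± 0.90 in Su(var)3-9 heads (26.1-fold, adjusted p = 0.000722) and by -6.64 ± 0.90 in double mutants (99.6-fold, adjusted p = 4.82e-05). On double mutant arrays 1 and 3 the shares of probe sets at or below its level were 46.1% and 56.2%. Whether these levels are above background is not known either, so the 99.6-fold is that of the deposited values only.

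The flight muscle actin gene Act88F was the least reduced of the 3. Its levels were 14.27, 13.89 and 14.20 in the control, 10.13, 11.70 and 11.44 in egg heads, 11.01, 8.53 and 10.57 in Su(var)3-9 heads, and 8.42, 10.45 and 9.09 in double mutants. It changed by -3.03 ± 0.63 (8.19-fold), -4.09 ± 0.63 (17.0-fold) and -4.80 ± 0.63 (27.8-fold) in these mutants (adjusted p = 0.00125, 0.000134 and 3.55e-05). Even in double mutants its probe set therefore kept a mean of 9.32 ± 1.04 (SD, n = 3).

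**Figure D1:**
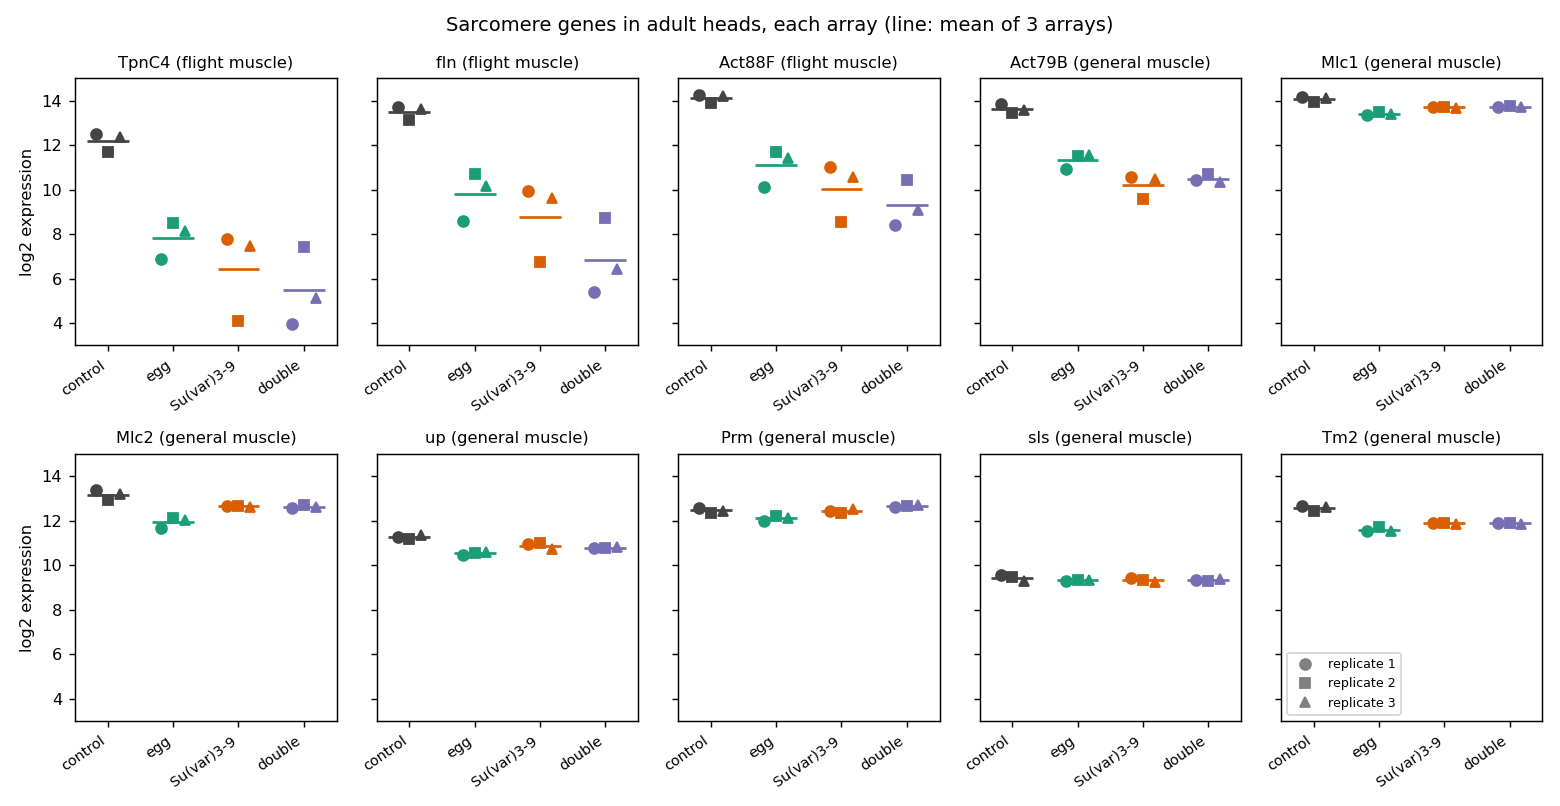
Log2 expression of the 10 sarcomere genes on each of 12 arrays, by genotype on the horizontal axis, with symbols for the replicates and a line at the mean of 3 arrays. The 3 flight muscle genes and Act79B drop by 2 or more log2 units from the control to every mutant, and each of the other 6 genes varies by at most 1.69 log2 units over all arrays.

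Replicates of a mutant differed in flight muscle transcripts far more than in general muscle transcripts. The pooled SD within genotypes was 1.44 for TpnC4, 1.36 for fln and 0.95 for Act88F, each at or above percentile 99.8 of all probe sets. For Act79B it was 0.35, at percentile 97.9, and for the other general muscle genes 0.07 to 0.17. The 3 flight muscle genes were high or low together on each array. All 3 lay above their own genotype mean on Su(var)3-9 arrays 1 and 3, on double mutant array 2, on egg arrays 2 and 3 and on control arrays 1 and 3, and all 3 lay below it on the other 5 arrays. Averaged over the 3 genes, Su(var)3-9 array 2 deviated by -1.97 from its genotype mean, double mutant array 2 by 1.65 and egg array 1 by -1.05.

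These swings within a genotype followed the markers of other tissues on some arrays and not on others. Double mutant array 2 was the highest of its genotype for flight muscle genes and also for gut, testis and accessory gland markers, with medians of 6.40, 5.86 and 7.56. Su(var)3-9 array 2 had the lowest flight muscle mean of its genotype and also the lowest gut and testis medians, 4.84 and 4.25. Su(var)3-9 array 1 had the highest flight muscle mean of its genotype, at -3.68 from the control mean. Its gut and testis medians, 5.041 and 4.265, were nevertheless close to those of array 2. Its accessory gland median of 3.95 was the lowest of all arrays. Egg array 1 had the lowest flight muscle mean of its genotype, at -4.74 from the control mean. It also had the lowest testis and accessory gland medians, 7.01 and 8.95, but the highest gut median, 8.34. The testis medians of egg arrays 2 and 3 were close to it, at 7.09 and 7.07. These are values of single arrays, and their order was not tested.

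**Figure D2:**
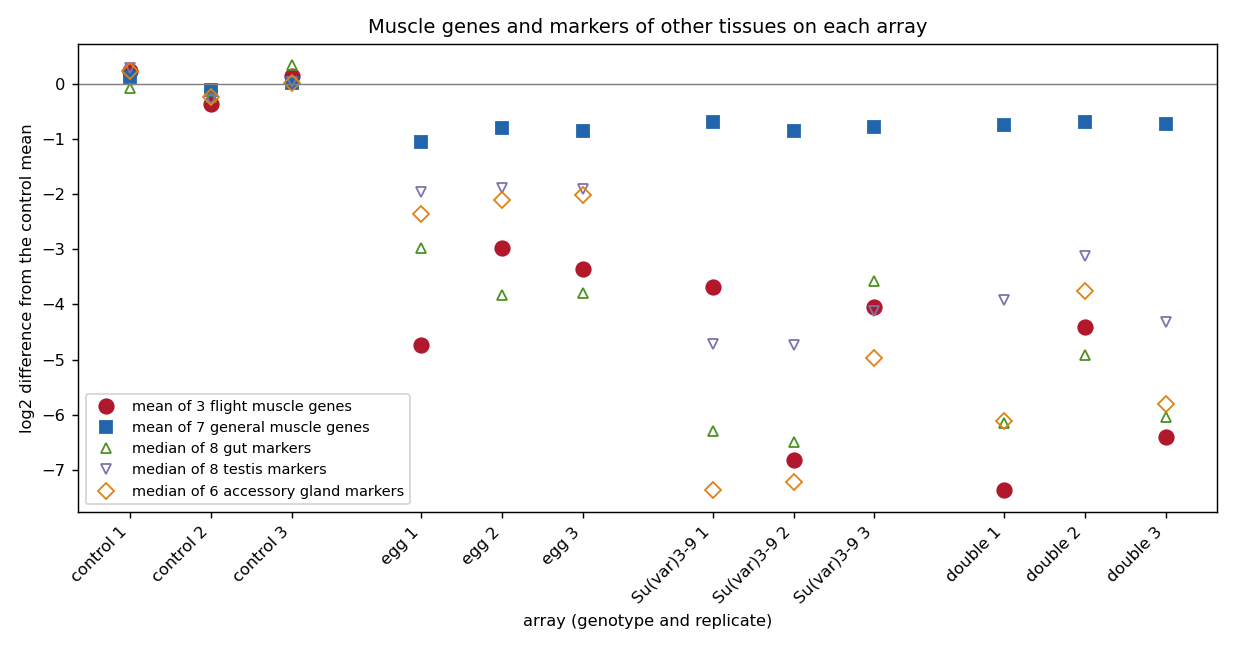
Log2 difference of each array from the control mean, for the mean of 3 flight muscle genes, the mean of 7 general muscle genes and the medians of gut, testis and accessory gland markers. On the 9 mutant arrays the general muscle mean lies between -1.05 and -0.69 and the flight muscle mean between -7.36 and -2.97.

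Among the general muscle genes, Act79B stood nearest to the flight muscle genes. Act79B encodes an actin of adult tubular muscles, such as those of the legs and the jump muscle. Its levels were 13.84, 13.44 and 13.58 in the control, 10.92, 11.50 and 11.55 in egg heads, 10.59, 9.58 and 10.48 in Su(var)3-9 heads, and 10.41, 10.69 and 10.34 in double mutants. The control, egg heads and the remaining mutants did not overlap, in that order from high to low. It changed by -2.30 ± 0.24 (4.92-fold), -3.40 ± 0.24 (10.6-fold) and -3.14 ± 0.24 (8.82-fold) against the control (adjusted p = 5.99e-06, 1.40e-07 and 3.15e-07).

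Myosin light chains, troponin T and tropomyosin fell too, but by far less, and they were lowest in egg heads. Mlc2, the myosin regulatory light chain gene, had levels of 13.37, 12.92 and 13.21 in the control, 11.68, 12.12 and 12.04 in egg heads, 12.69, 12.67 and 12.62 in Su(var)3-9 heads, and 12.59, 12.70 and 12.64 in double mutants. The egg arrays lay below all others and the control arrays above all others. It changed by -1.22 ± 0.12 in egg heads (2.33-fold, adjusted p = 4.67e-06), by -0.51 ± 0.12 in Su(var)3-9 heads and by -0.52 ± 0.12 in double mutants (adjusted p = 0.00373 and 0.0032).

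Tm2, a tropomyosin gene, was measured at 12.65, 12.44 and 12.61 in the control, 11.53, 11.72 and 11.55 in egg heads, 11.92, 11.92 and 11.85 in Su(var)3-9 heads, and 11.89, 11.91 and 11.86 in double mutants. The 3 levels, control, egg and the mutants with the Su(var)3-9 mutation, were again separate. It changed by -0.96 ± 0.08 (1.95-fold), -0.67 ± 0.08 and -0.68 ± 0.08 (adjusted p = 7.89e-07, 1.35e-05 and 1.21e-05). Mlc1, the alkali light chain of myosin, changed by -0.66 ± 0.07, -0.39 ± 0.07 and -0.35 ± 0.07, and up, which encodes troponin T, by -0.73 ± 0.09, -0.39 ± 0.09 and -0.48 ± 0.09 (all adjusted p at most 0.00196). Control levels of Mlc1 were 13.96 to 14.17 and mutant levels at most 13.74, and those of up 11.18 to 11.37 and at most 11.01.

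The size of the smaller changes depended on the scaling of the arrays. With each array centred on its median, the median change of all probe sets moved from 0.09 to 0.32 in egg heads, from 0.21 to 0.58 in Su(var)3-9 heads and from 0.18 to 0.54 in double mutants. Mlc1, Mlc2 and up then did not pass in Su(var)3-9 heads, at -0.02, -0.14 and -0.01, nor in double mutants, at 0.004, -0.17 and -0.13. The 3 flight muscle genes, Act79B and Tm2 passed and were lower in all 3 mutants under this scaling and under cyclic loess.

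Paramyosin and the titin-related gene sls stood apart from the rest of the sarcomere list. Prm, which encodes the thick filament core protein paramyosin and its short form miniparamyosin, had levels of 12.59, 12.37 and 12.43 in the control, 12.002, 12.24 and 12.12 in egg heads, 12.46, 12.34 and 12.52 in Su(var)3-9 heads, and 12.64, 12.69 and 12.70 in double mutants. Prm passed only in egg heads, at -0.34 ± 0.09 (adjusted p = 0.00427), and this did not pass with arrays centred on their medians (-0.12). The Su(var)3-9 mutant differed by -0.02 ± 0.09 and double mutants by 0.21 ± 0.09 (adjusted p = 0.81 and 0.0526), and with centring on medians these became 0.35 and 0.56 and passed. The second Prm probe set, 1632854_s_at, had the same calls, with -0.70 ± 0.09 in egg heads (adjusted p = 2.07e-05), -0.04 ± 0.09 in Su(var)3-9 heads and -0.09 ± 0.09 in double mutants.

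For sls, whose products include kettin and link thin filaments at the Z disc, the 3 probe sets disagreed. The brightest, 1628671_a_at, had levels of 9.30 to 9.57 in the control and 9.26 to 9.45 in the mutants, and its changes of -0.12, -0.10 and -0.11, each ± 0.08, did not pass. Their direction turned with the scaling, since they were lower and passed under cyclic loess (-0.43, -0.37 and -0.41), and with centring on medians were higher and passed in the Su(var)3-9 and double mutants (0.27 and 0.24). The probe set 1634102_at had levels of 9.46 to 9.52 in egg heads and of 8.83 to 9.22 on all other arrays. It rose by 0.42 ± 0.10 against the control in egg heads (adjusted p = 0.00324) and differed by -0.06 ± 0.10 and -0.16 ± 0.10 in the other mutants. The probe set 1635445_at was instead higher in Su(var)3-9 heads, by 0.26 ± 0.10 (adjusted p = 0.0324), and in double mutants, by 0.33 ± 0.10 (adjusted p = 0.0117). Which transcripts of sls each probe set reads is not given in the sources used here.

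Counted by gene, 9 of the 10 sarcomere genes were lower and none was higher in egg heads, where 18.9% of all probe sets were lower. The exception was sls. In Su(var)3-9 heads and in double mutants 8 of 10 were lower, against 17.3% of all probe sets in each case, and the exceptions were Prm and sls. None of the 10 was higher, against 32%, 44.4% and 40.4% of all probe sets in egg heads, Su(var)3-9 heads and double mutants. With arrays centred on their medians the count became 8 lower in egg heads, where 14.4% of all probe sets were lower and 59.1% higher. In both genotypes with the Su(var)3-9 mutation 5 were then lower and 2 higher (Prm and sls). There 12.2% of all probe sets were lower and 80.4% and 79.1% higher. The median change of the 10 genes was -1.09, -0.59 and -0.60 in the egg, Su(var)3-9 and double mutants, and that of all probe sets 0.09, 0.21 and 0.18. For 8 of the 10 genes all 3 control arrays lay above all 9 mutant arrays, as they did for 15% of all probe sets. The mean change of the 3 flight muscle genes minus that of the 7 general muscle genes was -2.79 in egg heads, -4.06 in Su(var)3-9 heads and -5.32 in double mutants, on the log2 scale. This difference was not tested, because the genes were grouped with earlier results of these data known.

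**Figure D3:**
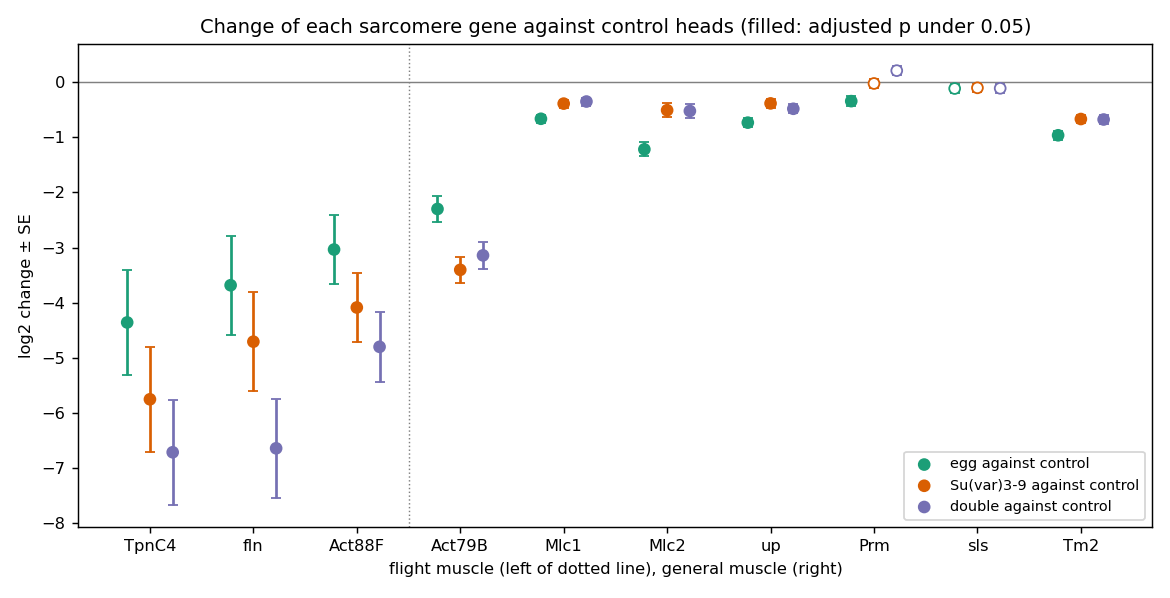
Log2 change against control heads ± SE for the 10 sarcomere genes in each mutant, with filled symbols where the adjusted p was under 0.05. The flight muscle genes range from -3.03 to -6.71 and Act79B from -2.30 to -3.40, while the other genes range from -1.22 to 0.21.

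Comparisons between mutants do not use the control arrays in their differences, but markers of other tissues differed there as well. In egg against Su(var)3-9 heads 6 of 6 accessory gland, 6 of 8 testis and 4 of 8 gut markers were higher, against 13.4% of all probe sets. In double mutants against egg heads the same numbers were lower, against 7.62%. None of these markers passed between double and Su(var)3-9 mutants, where 5.17% of all probe sets did. Their part in the muscle values was not tested. In the comparisons between mutants the mean changes of flight and general muscle genes had opposite signs, but the general muscle means were small. For egg against Su(var)3-9 these means were 1.16 and -0.12, and for double against egg -2.36 and 0.18. For double against Su(var)3-9 they were -1.20 and 0.06, where none of the 10 genes passed. Single general muscle genes changed in both directions in each comparison. The mean levels of all 3 flight muscle genes fell in the order control, egg, Su(var)3-9, double, but neighbours in that order among the mutants overlapped. Between the egg and Su(var)3-9 mutants TpnC4 differed by 1.39 ± 0.95, fln by 1.02 ± 0.90 and Act88F by 1.05 ± 0.63, higher in egg, and none passed (adjusted p = 0.291, 0.412 and 0.228). The 95% interval for TpnC4 ran from -0.68 to 3.47, so that a difference in either direction remained possible. Act79B was higher in egg heads by 1.10 ± 0.24 (adjusted p = 0.00486).

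In contrast, 5 general muscle genes were lower in egg heads than in Su(var)3-9 heads, Mlc2 by -0.71 ± 0.12, up by -0.35 ± 0.09, Prm by -0.32 ± 0.09, Tm2 by -0.29 ± 0.08 and Mlc1 by -0.27 ± 0.07 (adjusted p = 0.0011, 0.00934, 0.0151, 0.0149 and 0.0145). Of all probe sets 13.9% were lower and 13.4% higher in this comparison. On all 3 egg arrays these 5 genes lay below all 6 arrays with the Su(var)3-9 mutation, as did 13.7% of all probe sets, and Act79B lay above all 6, as did 14.7%. The 6 calls became 3 without egg array 1, when Mlc1, Prm and Tm2 did not pass. Of all probe sets 10.4% were then lower and 10.3% higher. With all arrays, the sls probe set 1634102_at was higher in egg heads, by 0.48 ± 0.10 (adjusted p = 0.00356), and 1635445_at did not pass.

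The double mutant was compared with egg heads to see what the added Su(var)3-9 mutation went with. Of the flight muscle genes fln was lower by -2.96 ± 0.90 (adjusted p = 0.0436), while TpnC4 at -2.35 ± 0.95 and Act88F at -1.76 ± 0.63 did not pass (adjusted p = 0.124 and 0.0813). Act79B was lower by -0.84 ± 0.24 (adjusted p = 0.0332). General muscle genes were higher in double mutants, Mlc2 by 0.70 ± 0.12, Prm by 0.55 ± 0.09, Mlc1 by 0.31 ± 0.07 and Tm2 by 0.29 ± 0.08 (adjusted p = 0.00237, 0.000931, 0.011 and 0.0265). Thus 2 of the 10 genes were lower, against 7.62% of all probe sets, and 4 were higher, against 7.91%. With a trended robust prior neither fln nor Act79B passed (adjusted p = 0.113 and 0.0849), leaving no gene lower and 5 higher. Of all probe sets 8.81% were then lower and 8.41% higher. The fln call was lost in 7 of 12 omissions of a single array, the Act79B call in 4, the Tm2 call in 5 and the Mlc1 call in 1. The 6 calls became 3 without double mutant array 1, double mutant array 3 or egg array 3. Of all probe sets 5.17%, 5.27% and 5.28% were then lower and 5.83%, 5.9% and 5.55% higher. Without Su(var)3-9 array 2 or double mutant array 2, TpnC4 and Act88F passed as lower. The brightest sls probe set did not pass with all arrays, but the other sls probe sets did, in opposite directions. In double mutants 1634102_at was lower, by -0.59 ± 0.10, and 1635445_at higher, by 0.34 ± 0.10 (adjusted p = 0.0018 and 0.0301).

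**Figure D4:**
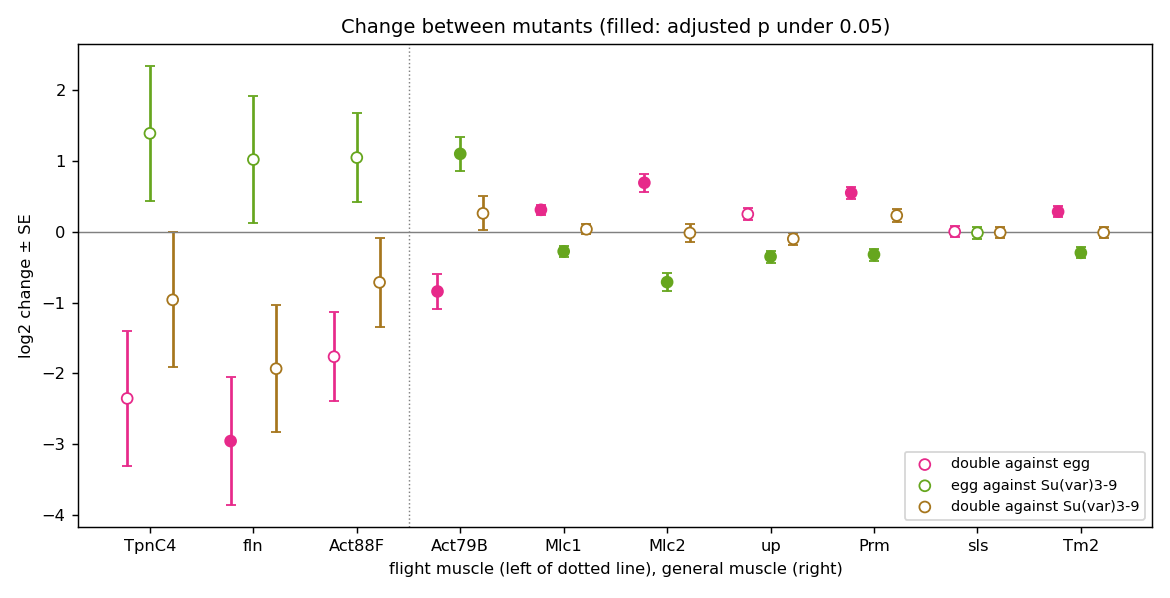
Log2 change ± SE between mutants for the 10 sarcomere genes, with filled symbols where the adjusted p was under 0.05. Against egg heads double mutants have lower means for the flight muscle genes and Act79B and higher means for Mlc1, Mlc2, up, Prm and Tm2. For the same genes egg against Su(var)3-9 shows the opposite signs. The same 3 egg arrays enter both comparisons with opposite sign, so the 2 patterns are not independent.

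Between the double and the Su(var)3-9 mutants none of the 10 genes passed in limma, where 5.17% of all probe sets did, and 1 of them, Prm, had an unadjusted p under 0.05. The differences for TpnC4, fln and Act88F were -0.96 ± 0.95, -1.93 ± 0.90 and -0.71 ± 0.63. Their 95% intervals reached from -3.03 to 1.11, from -3.90 to 0.03 and from -2.08 to 0.65 on the log2 scale. The intervals of general muscle genes were narrower, as for Tm2 (-0.18 to 0.16) and Mlc1 (-0.12 to 0.20).

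The interaction term asks whether the egg mutation went with the same change with and without the Su(var)3-9 mutation. For Act79B the change with egg was -2.30 without it and 0.26 with it, which differ by 2.56 ± 0.34 (adjusted p = 9.1e-05). For Mlc2 the values were -1.22 and -0.01, which differ by 1.20 ± 0.18 (adjusted p = 0.000176). Tm2, Mlc1, up and Prm passed likewise, at 0.95 ± 0.11, 0.70 ± 0.10, 0.64 ± 0.12 and 0.58 ± 0.12. TpnC4 at 3.40 ± 1.35 and Act88F at 2.32 ± 0.89 did not pass (adjusted p = 0.0626 and 0.0544), nor did fln at 1.75 ± 1.27 or sls at 0.11 ± 0.12. The sls probe set 1634102_at passed with a negative term, at -0.53 ± 0.14 (adjusted p = 0.00998), and 1635445_at did not pass. A positive term passed in 6 of 10 genes and in 15.8% of all probe sets. The term rests on the control arrays, on which gut, testis and accessory gland markers were high, and positive terms passed in 5 of 8, 7 of 8 and 6 of 6 of these markers. Their part in the terms was not tested.

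Other genes of muscle were mixed. A list of 57 symbols for thick and thin filaments, Z discs and attachment, calcium handling, energy supply and muscle transcription factors had 37 genes with a probe set named only for them. In egg heads 11 of these were higher and 12 lower than in the control, against 32% and 18.9% of all probe sets. In Su(var)3-9 heads 10 were higher and 7 lower, against 44.4% and 17.3%, and in double mutants 14 were higher and 9 lower, against 40.4% and 17.3%. Their median changes of -0.09, 0.09 and 0.10 lay below the medians of all probe sets, 0.09, 0.21 and 0.18. The split depended on the scaling. With arrays centred on their medians 17 were higher and 8 lower in egg heads, 29 and 4 in Su(var)3-9 heads and 24 and 4 in double mutants. Of all probe sets 59.1%, 80.4% and 79.1% were then higher and 14.4%, 12.2% and 12.2% lower. Under cyclic loess 4 were higher in each mutant and 15, 11 and 14 lower, where 16.8%, 16.4% and 15.9% of all probe sets were higher and 27.7%, 25.9% and 26.7% lower.

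Within this list 3 genes had changes of -1.82 or lower in each mutant. Zasp67, an ALP/Enigma family gene of the Z disc, had control levels of 7.42, 6.44 and 6.73 and mutant levels of 4.17 to 4.64. It changed by -2.46 ± 0.20, -2.44 ± 0.20 and -2.42 ± 0.20 in the egg, Su(var)3-9 and double mutants (adjusted p = 7.27e-07, 4.83e-07 and 5.46e-07). Between 24.4% and 35.6% of the probe sets of each mutant array were at or below its level, so these levels may not be above background and the 3 sizes are not compared. TpnC41C, the other troponin C of flight muscle, had control levels of 12.10, 11.49 and 11.95 and mutant levels of 9.48 to 10.14. It changed by -1.82 ± 0.15, -2.02 ± 0.15 and -2.27 ± 0.15. GstS1, a glutathione transferase found bound to flight muscle troponin, changed by -2.05 ± 0.22, -2.36 ± 0.22 and -2.01 ± 0.22. All 9 changes passed.

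Other thin and thick filament genes had smaller changes. TpnC73F, a troponin C of other muscles, changed by -1.28 ± 0.18, -0.59 ± 0.18 and -0.80 ± 0.18 in the egg, Su(var)3-9 and double mutants, with egg heads lowest as for Mlc2. Act87E, a further muscle actin, and Mp20, a calponin-like protein, passed only in egg heads, at -0.55 ± 0.12 and -0.52 ± 0.12, and their changes in Su(var)3-9 heads were 0.26 ± 0.12 and 0.18 ± 0.12 and did not pass. The projectin gene bt fell in all 3, at -0.41 ± 0.10, -0.40 ± 0.10 and -0.55 ± 0.10. The thin filament capping gene tmod rose by 0.33 ± 0.10, 0.85 ± 0.10 and 0.66 ± 0.10, and the thick filament genes Mf and Strn-Mlck rose in double mutants by 0.23 ± 0.07 and 0.43 ± 0.09. Mf also rose in Su(var)3-9 heads, by 0.27 ± 0.07, and Strn-Mlck in egg heads, by 0.51 ± 0.09.

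Of 14 Z disc and attachment genes 5 rose and 4 fell in egg heads, 4 rose and 2 fell in Su(var)3-9 heads and 6 rose and 2 fell in double mutants. The shares of all probe sets that rose and fell were those given for the whole list. Zasp52 fell in each, at -0.34 ± 0.10, -0.64 ± 0.10 and -0.31 ± 0.10, and the actin crosslinker gene Actn and the muscle LIM gene Mlp60A fell in egg heads, at -0.51 ± 0.08 and -0.34 ± 0.06. Of the integrin adhesion genes, which many tissues use, a pair rose in all 3 mutants, with rhea (talin) at 0.67 ± 0.09, 0.28 ± 0.09 and 0.48 ± 0.09 and the integrin gene mys at 0.32 ± 0.08, 0.50 ± 0.08 and 0.54 ± 0.08. The integrin gene mew rose by 0.60 ± 0.16 in egg heads and by 0.54 ± 0.16 in double mutants, and the LIM gene Lmpt by 0.25 ± 0.08 and 0.40 ± 0.08.

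Calcium handling genes had small changes. The calcium pump gene SERCA did not pass in any mutant (-0.09, -0.07 and -0.05, each ± 0.07), the release channel gene RyR fell at -0.29 ± 0.09 in Su(var)3-9 heads and -0.27 ± 0.09 in double mutants, and the calcium channel gene Ca-alpha1D rose by 0.54 ± 0.09 in egg heads and by 0.22 ± 0.09 in double mutants. Of the energy genes, Gpdh1 and Men fell in egg heads, at -0.65 ± 0.13 and -0.67 ± 0.07, and in double mutants, at -0.37 ± 0.13 and -0.42 ± 0.07, and the arginine kinase gene Argk1 rose there by 0.18 ± 0.07. None of the 8 muscle transcription factor genes measured fell in limma, against 18.9%, 17.3% and 17.3% of all probe sets in the 3 mutants. The lowest adjusted p of a negative change was 0.0795 (vg, Su(var)3-9 mutant). Levels of vg, bin, twi and nau were 4.06 to 5.61, below the array medians of 5.71 to 6.14, so a fall in them might not be seen. The flight muscle selector salm rose by 0.50 ± 0.13 in Su(var)3-9 heads and by 0.56 ± 0.13 in double mutants. There salr, Lim3 and ap rose as well, which made 4 of 8, against 44.4% and 40.4% of all probe sets. All 4 genes are also used outside muscle.

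**Figure D5:**
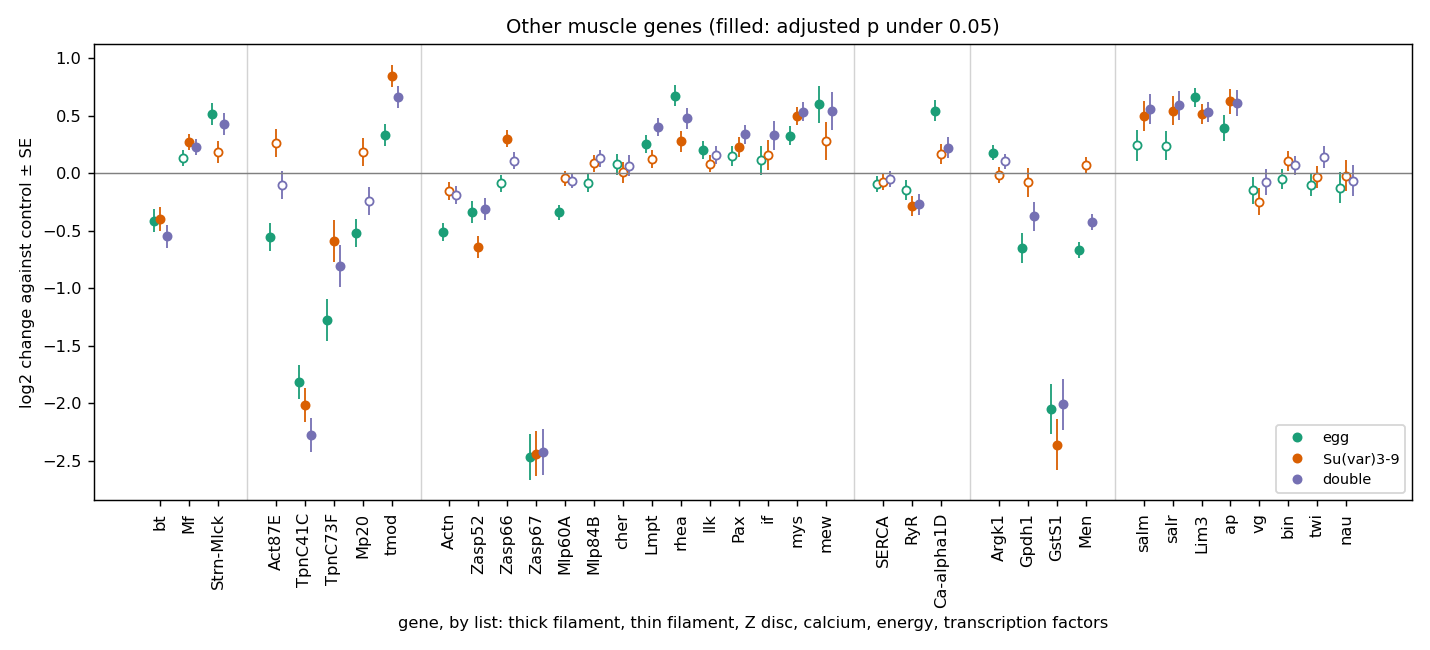
Log2 change against control ± SE of 37 other muscle genes in the egg, Su(var)3-9 and double mutants, ordered by list from thick filament to transcription factors, with filled symbols where the adjusted p was under 0.05. Zasp67, TpnC41C and GstS1 lie between -1.82 and -2.46 in all 3 mutants, while most other genes lie within 1 log2 unit of 0.

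Likeness to the flight muscle genes was measured over 11972 other genes and 12 arrays, as the root mean square difference from the mean profile of TpnC4, fln and Act88F, with each profile taken as deviations from its own mean. For scale, the profile itself had a root mean square of 2.48. The flight muscle genes lay at 0.31 (fln), 0.38 (TpnC4) and 0.52 (Act88F), having entered the mean. The nearest other genes were CG14292 (0.64), Spn77Bb (0.80), Acbp5 (0.89), Jon25Bii (0.93), Spn28F (0.93), Mal-A1 (0.97), Sfp33A3 (0.98) and CG16904 (0.99). Spn77Bb and Spn28F belong to the serpin protease inhibitors, Jon25Bii to the Jonah proteases and Mal-A1 to the maltases, none of which is a sarcomere protein. CG14292 had deviations of 3.54, 2.95 and 3.45 in the control, -1.08, -3.71 and -0.49 in Su(var)3-9 heads and -2.31, -0.43 and -2.60 in double mutants, so that Su(var)3-9 array 2 and double mutant arrays 1 and 3 were low in this gene as in the flight muscle genes. Act79B had a difference of 1.29, and the other 6 general muscle genes had differences of 2.24 to 2.52. The measure is a description, and these arrays share the differences between genotypes described above.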

How the data were processed

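RNA of adult heads was extracted with Trizol from flies reared at 25 °C and 70% humidity and hybridised to Affymetrix arrays, per the labels' protocols. The authors deposited log2 values, 1 per probe set and array. The tools named per the submitters' processing notes are RMA and limma, and their versions are not given in the sources used here. A method of this kind normalises between arrays, so a change in total RNA would not show. The series has 13 arrays, and the column of the second technical array of control replicate 1 was empty, so 12 were used and the planned use of that pair was not run.

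From the 18952 probe sets of the table, 183 controls of the manufacturer were dropped. Of the rest, 13647 had 1 gene symbol in the platform annotation and could be named, 402 had several and 4720 had none. Means of the 4 genotypes were estimated with limma 3.58.1 in R 4.3.3 (8 residual and 4.162 prior degrees of freedom), two-sided, with Benjamini-Hochberg adjustment over all probe sets in each contrast. The fit was tested on simulated data. Python 3.11.15 and matplotlib 3.10.9 drew the figures.

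The sarcomere genes, the gene lists and the tests were chosen with earlier results of these data known. All 10 genes were named, with up to 4 rises and 4 falls of each further muscle list and the 8 genes nearest to the flight muscle profile. SERCA and vg fall outside this rule and were chosen after their values were seen. Alternatives were a replicate block, only the groups compared, a trended robust prior, removal of probe sets under the 40th percentile of mean signal, centring on array medians, cyclic loess, averaging over all probe sets of a gene, a minimum of 1.5-fold and leaving out each array.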

Additional observations from a re-analysis of the deposited data

Results flagged for a closer look

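For 6 of the 10 sarcomere genes the change that went with the egg mutation differed by the interaction test between flies with and without the Su(var)3-9 mutation. A positive term passed in 15.8% of all probe sets, and in 5 of 8 gut, 7 of 8 testis and 6 of 6 accessory gland markers. The difference was 2.56 for Act79B, 1.20 for Mlc2, 0.95 for Tm2, 0.70 for Mlc1, 0.64 for up and 0.58 for Prm, in log2 units. The control arrays, on which markers of other tissues were high, enter each of these values, and the part of those tissues was not tested.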

How the results depend on the processing

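Counts of sarcomere genes that passed against the control in either direction were within 1.5 times of 9, 8 and 8 in the egg, Su(var)3-9 and double mutants under all alternatives, except that with at least 1.5-fold required 5 passed in Su(var)3-9 heads and 5 in double mutants. Centring on medians lowered the count of lower genes from 8 to 5 in both, with 2 higher. Leaving out single arrays gave 9, 8, and 8 to 9. For the double against the egg mutant the count of 6 became 3 with the replicate block (none lower, 3 higher) and 3 at 1.5-fold, and 3 to 8 without single arrays. With the block 6.65% of all probe sets were lower and 6.89% higher. For egg against Su(var)3-9 the count of 6 became 2 at 1.5-fold and 3 to 6 without single arrays. Between double mutants and Su(var)3-9 heads the trended robust prior passed 1 gene, Prm, in place of none. Of the 37 other muscle genes 9, 7 and 7 passed at 1.5-fold in the egg, Su(var)3-9 and double mutants. No share of all probe sets is given here for 1.5-fold. With arrays centred on medians 33 passed in the Su(var)3-9 mutant, where 80.4% of all probe sets were higher and 12.2% lower. That centring turned the sign of Prm and sls in Su(var)3-9 heads (0.35 and 0.27) and of Mlc1 and sls in double mutants (0.004 and 0.24), because it shifted all changes alike. The difference between flight and general muscle changes moved by less than the within-genotype SD of 1.18 under all alternatives run for it, but this is a weak check. The replicate block, the fit of only the groups compared, the percentile filter and centring on medians left it unchanged. So did leaving out an array of a genotype outside the comparison. Leaving out 1 of 3 arrays moves a mean by less than that array's own deviation. Without Su(var)3-9 array 2 the difference went from 1.28 to 0.34 for egg against Su(var)3-9. For double against Su(var)3-9 it went from -1.26 to -2.20 without that array and to -2.07 without double mutant array 2. It became -0.72 without Su(var)3-9 array 1 and -0.62 without double mutant array 1. In the other comparisons the replicate block changed no count by over 1.5 times, and the numbers were not taken as pairs, since deviations of same-numbered arrays correlated at -0.36 to 0.101 over 18 pairs, and 3 of 12 arrays correlated best with their own number. The 3 arrays per genotype left wide intervals for the flight muscle genes between mutants.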
